A study of Mus musculus with 78 samples.

Results

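The 10 genes described here carry glucose into the cell and turn it into pyruvate and lactate, and were followed in mouse embryonic stem cells from which the transcription factor ZFP143 had been removed. They were chosen by name, out of 55401 genes in each count table, for their place in glycolysis or at its exit: the glucose transporter Slc2a1, the hexokinases Hk1 and Hk2, the phosphofructokinases Pfkl and Pfkp, the aldolase Aldoa, phosphoglycerate kinase Pgk1, pyruvate kinase Pkm, lactate dehydrogenase Ldha and pyruvate dehydrogenase kinase Pdk1. All 10 passed the filter on low counts in each of 3 tables. By the GENCODE vM21 annotation of mm10, Slc2a1 (ENSMUSG00000028645.11) at chr4:119108711-119137983 on the plus strand, Hk1 (ENSMUSG00000037012.18) at chr10:62268855-62379908 on the minus strand and Hk2 (ENSMUSG00000000628.10) at chr6:82725025-82774454 on the minus strand act first. The next steps are carried out by Pfkl (ENSMUSG00000020277.10) at chr10:77986947-78010083 on the minus strand, Pfkp (ENSMUSG00000021196.14) at chr13:6579768-6648777 on the minus strand and Aldoa (ENSMUSG00000030695.16) at chr7:126795234-126800751 on the minus strand. The energy-yielding steps belong to Pgk1 (ENSMUSG00000062070.12) at chrX:106187100-106203699 on the plus strand and Pkm (ENSMUSG00000032294.17) at chr9:59656368-59679375 on the plus strand. At the exit lie Ldha (ENSMUSG00000063229.15) at chr7:46841475-46855627 on the plus strand and Pdk1 (ENSMUSG00000006494.11) at chr2:71873224-71903858 on the plus strand. The cells were E14TG2a stem cells whose own Zfp143 gene was fused, on both alleles and in lines grown from single cells, to FKBP12 F36V, HA and eGFP sequences, so that the molecule dTAG-V1 brings the fusion protein to the VHL ubiquitin ligase for degradation. All libraries, controls included, carry this tag. Nascent RNA was profiled by TT-seq, in which RNA made during a short pulse of 4-thiouridine is purified, in DMSO-treated cells and at 2, 6 and 24 h of dTAG-V1 (500 nM). Stranded mRNA sequencing was done after DMSO or after 24, 48 or 72 h of dTAG-V1. A further mRNA experiment followed cells given DMSO or dTAG-V1 for 24 h, and cells then kept in the same condition for a further 24 h in N2B27 differentiation medium with retinoic acid (RA), so that the depleted RA cells had been without ZFP143 for 48 h. Each of the 12 groups held 2 libraries. No libraries in N2B27 without RA and none of untagged cells given dTAG-V1 were analysed here, so the effect of RA and that of the medium cannot be told apart, nor can the effect of ZFP143 loss and that of the molecule.

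Glycolysis splits each glucose into 2 pyruvate molecules in the cytosol and needs no mitochondria. Lactate dehydrogenase then regenerates the cofactor that lets the pathway run on, while pyruvate that a carrier brings into mitochondria is turned into acetyl-CoA by pyruvate dehydrogenase, which Pdk1 and its relatives switch off. Cells with failing mitochondria often lean on glycolysis, and pluripotent stem cells are known for a high glycolytic rate. These genes were read for how their transcription and mRNA moved while transcripts of the mitochondrial genome were lost.

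After 24 h of depletion, 6 of the 10 genes (Slc2a1, Pfkl, Aldoa, Pgk1, Pkm and Ldha) had fallen in nascent RNA and in mRNA, and none had risen. Over all genes tested 4.09% were called lower and 2.02% higher in nascent RNA, and 3.41% and 2.32% in mRNA. The nascent count was 2 to 6 with single libraries left out and 0 under the thresholds used for mRNA. At 72 h, mRNA of the same 6 genes stood at 23.8 to 50.3% of the DMSO level. Hk1, Hk2, Pfkp and Pdk1 stood at 63.5 to 81.2% at that time and did not pass the test. With the thresholds used for TT-seq, Hk1 and Pfkp were also called lower, where 3066 of 13925 genes were called lower and 3398 higher. After RA, Aldoa in depleted cells stood at 13.4% of its level in DMSO cells with RA.

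Binding of ZFP143 was given by a list of 3189 peaks of the HA-tagged protein. None of the 10 genes had a peak at a start site (2000 bases before to 1000 after any annotated start), against 2108 of 13925 genes tested in mRNA, which is 15.1%. The nearest peaks lay 3691 bases from a start of Hk1, at chr10:62314593-62314811 (fold enrichment 4.25), and 5524 bases from a start of Aldoa, at chr7:126791988-126792467 (fold enrichment 15.3). For the other 8 genes the nearest peak was 65466 bases (Slc2a1) to 2268054 bases (Pfkp) away. The 250 bases before the RefSeq starts (build GRCm38.p6, the same sequence as mm10) were read for short motifs on both strands. The letters ACTACA, part of the longer element that ZFP143 recognises, were in no member and in 8.92% of 32851 promoters, and TTCCCAG, another part of it, was in Pgk1 only and in 9.1% of promoters. The core of the hypoxia response element, bound by HIF factors, reads ACGTG or GCGTG. At least 1 of these was found before 12 of 16 starts, which touched all 10 genes, against 38.6% of all promoters. ACGTG was before 7 of 16 starts (of Slc2a1, Hk2, Aldoa, Pgk1, Pkm and Ldha), against 16.6% of promoters, and GCGTG before 6 of 16 (of Slc2a1, Hk1, Pfkl, Pfkp, Ldha and Pdk1), against 28.2%. Some of these starts belong to the same gene and overlap. CACGTG, the E-box read by MYC and related factors, which holds ACGTG within it, was before 1 of 16 starts (of Ldha), against 6.02% of promoters. The GC box GGGCGG was before 9 of 16 starts, of 8 genes, against 32.7%. These are matches of letters and say nothing of whether a factor was bound.

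The stretches before 4 genes are printed as examples. Ldha and Pgk1 fell in mRNA at every time of the time course. Of the paralogs Pfkl and Pfkp, Pfkl fell at each of these times and Pfkp passed the test of depletion at none. Whether the motifs bear on these changes was not tested. Capitals mark ACGTG and GCGTG on either strand, sequences run 5′ to 3′ along the gene, and each stretch ends at the base before the RefSeq start.
Ldha, chr7:46845554-46845803, plus strand: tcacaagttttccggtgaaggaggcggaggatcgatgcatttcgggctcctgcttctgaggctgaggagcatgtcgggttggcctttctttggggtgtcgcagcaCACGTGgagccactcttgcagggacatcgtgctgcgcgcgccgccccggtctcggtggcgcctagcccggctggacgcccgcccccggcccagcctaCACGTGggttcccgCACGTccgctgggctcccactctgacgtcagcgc
Pgk1, chrX:106186850-106187099, plus strand: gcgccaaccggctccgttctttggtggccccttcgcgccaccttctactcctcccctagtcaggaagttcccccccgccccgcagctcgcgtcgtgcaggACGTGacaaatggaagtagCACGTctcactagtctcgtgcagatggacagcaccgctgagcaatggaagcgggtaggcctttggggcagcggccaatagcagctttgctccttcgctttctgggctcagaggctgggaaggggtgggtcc
Pfkl, chr10:78009808-78010057, minus strand: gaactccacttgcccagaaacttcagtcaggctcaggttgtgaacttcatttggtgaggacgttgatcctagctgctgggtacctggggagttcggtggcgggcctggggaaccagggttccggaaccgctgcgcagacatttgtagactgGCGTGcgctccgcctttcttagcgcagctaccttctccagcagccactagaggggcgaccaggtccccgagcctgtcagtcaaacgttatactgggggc
Pfkp, chr13:6648772-6649021, minus strand: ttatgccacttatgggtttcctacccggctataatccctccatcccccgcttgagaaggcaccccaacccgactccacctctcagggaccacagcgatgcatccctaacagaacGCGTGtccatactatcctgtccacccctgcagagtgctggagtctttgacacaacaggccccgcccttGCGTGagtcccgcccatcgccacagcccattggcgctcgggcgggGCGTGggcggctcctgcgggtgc
The Ldha stretch held CACGTG at 2 places, which reads as ACGTG on both strands, and 1 further ACGTG on the other strand. Pgk1 held ACGTG once on each strand. Pfkl held GCGTG at 1 place and Pfkp at 3, and neither held ACGTG.

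Total counts ran from 9721568 to 16532077 per library in TT-seq, from 10261851 to 15316700 in the mRNA time course and from 13890761 to 27089033 in the RA experiment, and the spread between libraries of a group, as the biological coefficient of variation, was 17.2%, 3.65% and 5.92%. The transcript of the tagged gene itself rose after dTAG-V1: nascent Zfp143 was at 71.27 and 74.45 CPM (read counts scaled by the effective library size) in DMSO and 162.2 and 164.8 (2 h), a log2 change of 1.17 (SE 0.11, edgeR adjusted p = 0.00104), and its mRNA rose in each contrast with DMSO. Since the degron removes protein, this transcript does not check the labels. Of 13 protein-coding genes of the mitochondrial genome, some, such as mt-Co3 and mt-Atp8, read 0 in all libraries of some groups. The paper shows the single-read mappability of mitochondrial DNA beside its values, and its part in these counts was not tested. The count filter was passed by 7 genes. In TT-seq none of the 7 passed the test at 2 and 6 h (edgeR; 0 at an unadjusted p under 0.05, 0 in DESeq2) and 6 fell at 24 h. The summed level of the 13 genes was then 3700 to 4172 CPM against 6820 to 7582 in DMSO. In mRNA 2, 5 and 6 of 7 fell at 24, 48 and 72 h, where DESeq2 called 0, 5 and 5. Of 8 stem cell markers all were detected in each group, and 3 of 8 (Sox2, Nanog and Dppa5a) fell at 48 and 72 h of mRNA, with a sum of 4216 to 4265 CPM at 72 h against 6520 to 6725. The summed level of 10 markers of differentiated cells was 113.5 to 117 CPM in DMSO mRNA, with Cdx2 at 0 in all groups of the time course. It was 96.12 to 98.79 CPM at 24 h, 77.39 to 77.74 at 48 h and 84.85 to 87.14 at 72 h. Of 5 tested, 4 were higher and 1 lower at an unadjusted p under 0.05 (edgeR) at 24 and 48 h, and 3 and 2 at 72 h. DESeq2 called 0 at 24 h, 1 lower and 1 higher at 48 h, and 1 higher at 72 h. Their part in the results on glycolysis genes was not tested, and in bulk RNA fewer cells of a type and less RNA per cell cannot be told apart.

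In control stem cells the 10 genes spanned a wide range. Per kilobase of exons, DMSO mRNA of Aldoa stood at 679 to 710 CPM, above Pkm at 414 in both libraries and Ldha at 316 to 321. Slc2a1 (104 to 107) and Pgk1 (76.1 to 82.8) followed. Hk2 (71.3 to 72.2) and Pfkp (71.4 to 71.8) overlapped, and below them came Pfkl (43.2 to 43.9), Hk1 (35.9) and Pdk1 (11.5 to 12.6). In DMSO cells the genes together took 0.702 and 0.707% of all mRNA counts, and after 24, 48 and 72 h of depletion 0.463 and 0.48%, 0.308 and 0.307%, and 0.307 and 0.301%. Of 9 annotated pseudogenes and retrogene copies of Aldoa, Ldha and Pgk1, none had more than 46 reads summed over a table, and none more than 0.48% of the counts of its parent gene. A second gene of the name Aldoa, not used here, held 8% as many TT-seq counts as Aldoa and 0.28% as many mRNA counts, and Hk1os, antisense to Hk1, held 3.9% as many TT-seq counts as Hk1.

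**Figure D1:**
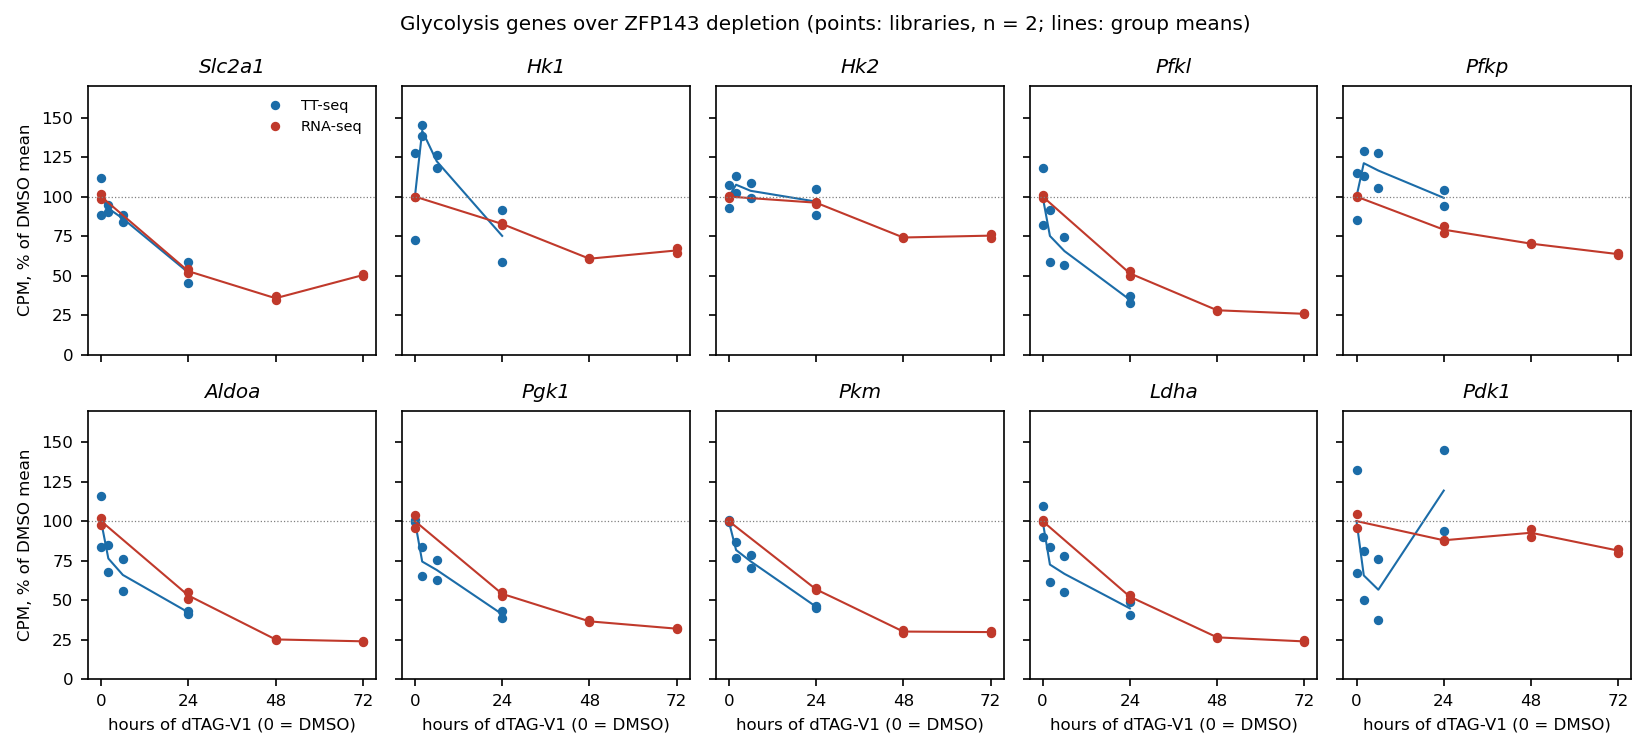
Level of each gene as a percent of its DMSO mean (vertical axis) against hours of dTAG-V1 (horizontal axis, 0 is DMSO). Blue points are TT-seq libraries and red points mRNA libraries, 2 per group, and lines join group means. Slc2a1, Pfkl, Aldoa, Pgk1, Pkm and Ldha go down in both assays, while Hk2 and Pdk1 mRNA stays above 70% of DMSO.

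Nascent transcription was the first readout. At 2 h and at 6 h no member was called lower or higher, a call being an edgeR quasi-likelihood adjusted p under 0.05 with a log2 change beyond 0.5, and DESeq2 called none either. With the replicate number as a block in the edgeR fit, 3 members (Aldoa, Pgk1 and Ldha) were called lower at 6 h, where that fit called 956 of 17870 genes lower and 359 higher. Without the count filter 5 were called lower at 6 h (980 and 338 of 36394 genes) and 1 higher at 2 h (774 and 162). At an unadjusted p under 0.05, 2 members were lower at 2 h (Pkm and Pgk1) and 5 at 6 h (Pfkl, Aldoa, Pgk1, Pkm and Ldha), and none was higher. Of all 17870 genes, 2.43% were called lower and 0.168% higher at 2 h, and 2.83% and 0.397% at 6 h. The median log2 change of the members was -0.34 at 2 h and -0.48 at 6 h, against 0.01 over all genes at both times. At 24 h, 6 of 10 were called lower and 0 higher, with 4.09% of all genes called lower and 2.02% higher. The members' median was then -1.04, against 0.01 over all genes. Mitochondrial transcripts had calls at the same time only, with 0 of 7 at 2 and 6 h and 6 of 7 at 24 h.

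Pkm, which makes pyruvate in the last energy-yielding step, had the smallest adjusted p at 24 h. Its nascent level was 907.1 and 922.1 CPM in DMSO, 793.9 and 700.7 (2 h), 720.4 and 643.4 (6 h) and 413.5 and 424.6 (24 h). The 24 h libraries lay below all others, with a log2 change from DMSO of -1.13 (SE 0.12, edgeR adjusted p = 0.00176). Pgk1, which makes ATP midway along the pathway, went from 116.5 and 118.1 CPM in DMSO to 98.33 and 76.2 (2 h), 88.63 and 73.39 (6 h) and 50.76 and 45.51 (24 h), a log2 change at 24 h of -1.29 (SE 0.16, edgeR adjusted p = 0.0031). Both DMSO libraries of Pgk1 were above every depleted library. Pfkl, the liver-type phosphofructokinase at the committed step, showed the largest fall of the 10 at 24 h. It was at 82.64 and 57.68 CPM in DMSO and at 22.73 and 25.91 (24 h), with a log2 change of -1.52 (SE 0.26, edgeR adjusted p = 0.0129).

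Aldoa, which splits fructose 1,6-bisphosphate, was at 219.1 and 158.4 CPM in DMSO, 143.3 and 105.5 (6 h) and 77.72 and 81.75 at 24 h (log2 change at 24 h -1.24, SE 0.21, edgeR adjusted p = 0.0109). Ldha, which makes lactate, was at 177.8 and 145.9 CPM in DMSO, 126.6 and 89.01 (6 h) and 79.49 and 65.34 at 24 h (log2 change -1.16, SE 0.22, edgeR adjusted p = 0.0186). Slc2a1, the glucose carrier GLUT1, was at 346.5 and 274.9 CPM in DMSO, 274 and 260.9 (6 h) and 181.7 and 140.9 at 24 h (log2 change -0.95, SE 0.16, edgeR adjusted p = 0.012). In these 3 genes the 24 h and DMSO groups did not overlap. The paralog Pfkp was at 475.4 and 353 CPM in DMSO and at 430.9 and 390.8 (24 h), with groups that overlapped and a log2 change of -0.01 (95% interval -0.40 to 0.38). Hk2, the hexokinase bound to mitochondria in fast-growing cells, gave -0.05 (-0.36 to 0.27) and Hk1 -0.41 (-1.03 to 0.20). Pdk1 was the least precise, with 25.65 and 50.44 CPM in DMSO and 35.71 and 55.09 (24 h), and its interval at 24 h ran from -0.69 to 1.19.

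The count of 6 at 24 h leaned on individual libraries. It was 2 (Pgk1 and Pkm) without DMSO replicate 1 or without 24 h replicate 2, 4 without 24 h replicate 1 and 6 without DMSO replicate 2, and it was 0 under the stricter thresholds used for mRNA. Between 2 h and 24 h no member was called by the edgeR fit without a block (7 were lower at an unadjusted p under 0.05), where 0.056% of all genes were called lower and 0.0336% higher, or 13 lower and 19 higher in place of 10 and 6 with scaling by library size alone. For that interval the count of members called lower was 7 with the replicate block, 7 (and 1 higher) without the count filter, 6 under DESeq2 and 1 (Pkm) with library size alone. Over all genes those fits called 390 lower and 572 higher (block), 490 and 820 (no filter) and 195 and 229 (DESeq2), so the low number of calls depended on the fit.

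In mRNA, where libraries of a group lay closer together, the same 6 genes fell at all 3 times. A call here asks that the change lie beyond 1.5-fold at an adjusted p under 0.01 (edgeR glmTreat). At 24 h 6 of 10 members were called lower and 0 higher, with 3.41% of 13925 genes called lower and 2.32% higher. At 48 h it was 7 and 0, with 7.71% and 10.5% of all genes, and at 72 h 6 and 0, with 12% and 13.7%. The members' median log2 change was -0.85, -1.47 and -1.32 at the 3 times, against 0.01 to 0.02 over all genes. Between 24 h and 72 h a further 5 of 10 fell (Pfkl, Aldoa, Pgk1, Pkm and Ldha) and 0 rose, with 6.6% of genes called lower and 7.53% higher. Scaled by library size alone, which shifted the median of all genes by 0.09 to 0.22 on the log2 scale, the calls over all genes turned from 475 lower and 323 higher to 385 and 495 (24 h), from 1073 and 1456 to 698 and 2047 (48 h), from 1677 and 1912 to 1109 and 2736 (72 h), and from 919 and 1048 to 720 and 1264 between 24 and 72 h. The member counts under that scaling were within 1.5 times of those given, and no member was called higher. Pkm at 24 h was not called under it.

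Aldoa and Ldha had the largest falls at 48 and 72 h, and Pfkl at 24 h, with values close to each other. Aldoa mRNA was at 2067 and 1976 CPM in DMSO, 1030 and 1110 (24 h), 515.1 and 499.9 (48 h) and 488.2 and 478.5 (72 h), and its log2 change at 72 h was -2.06 (SE 0.04, edgeR adjusted p = 1.75e-22). Ldha was at 1045 and 1062 CPM in DMSO, 562.9 and 536.1 (24 h), 276.4 and 280.2 (48 h) and 258.5 and 244 at 72 h (log2 change at 72 h -2.07, SE 0.04, edgeR adjusted p = 1.79e-22). For both genes the libraries of successive times never overlapped, and most of the fall had happened by 48 h. Pfkl went from 288.6 and 292.8 CPM in DMSO to 144.2 and 154.5 (24 h), 80.11 and 82.81 (48 h) and 75.57 and 74.28 at 72 h (log2 change at 72 h -1.96, SE 0.05, edgeR adjusted p = 2.10e-20). Pkm went from 2070 and 2068 CPM to 1164 and 1187, 637.1 and 607.7, and 625.2 and 605.9 at the same times (log2 change at 72 h -1.75, SE 0.04, edgeR adjusted p = 4.15e-21). Its 48 h and 72 h libraries overlapped. Pgk1 went from 185.7 and 170.8 CPM to 94.26 and 98.06, 66.11 and 64.2, and 56.61 and 57.16 (log2 change at 72 h -1.64, SE 0.06, edgeR adjusted p = 9.05e-17). Its further fall from 24 to 72 h, -0.76, lost the call without 24 h replicate 2, without either 72 h library, under DESeq2 and under scaling by library size alone.

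Slc2a1 had its lowest level in the middle of the time course. It was at 374.2 and 363.6 CPM in DMSO, 198.6 and 190.8 (24 h), 127.1 and 135.9 (48 h) and 188.3 and 182.7 (72 h). The 72 h libraries lay above the 48 h ones and just below the 24 h ones, and the log2 change from DMSO was -0.92 (SE 0.05) at 24 h, -1.49 (SE 0.05) at 48 h and -0.99 (SE 0.05) at 72 h, each called (largest edgeR adjusted p = 1.40e-07). The step from 48 to 72 h was not tested. Hk1 passed the test at 48 h only. It was at 306.2 and 306.3 CPM in DMSO, 251.1 and 255.2 (24 h), 187.2 and 184.4 (48 h) and 197.7 and 206 (72 h), and its log2 change at 48 h was -0.72 (SE 0.04, edgeR adjusted p = 0.0026). That call was lost without either 48 h library, under DESeq2 and under scaling by library size alone.

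The other 3 genes did not pass at any time of the mRNA course. Hk2 was at 431 and 425.6 CPM in DMSO, 409 and 414.5 (24 h) and 327.6 and 317.2 (72 h), with all depleted libraries below both controls but a log2 change of only -0.41 at 72 h (95% interval -0.49 to -0.33). Pfkp was at 962 and 957.2 CPM in DMSO and 617.6 and 602.1 (72 h), a log2 change of -0.65 (-0.73 to -0.57, edgeR adjusted p = 0.0407 for a change beyond 1.5-fold). Pdk1 was at 89.55 and 97.92 CPM in DMSO, 84.59 and 89.05 (48 h) and 75.11 and 77.35 (72 h), a log2 change of -0.30 (-0.42 to -0.18). All 3 thus lay below DMSO by an amount that the 1.5-fold test does not call.

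**Figure D2:**
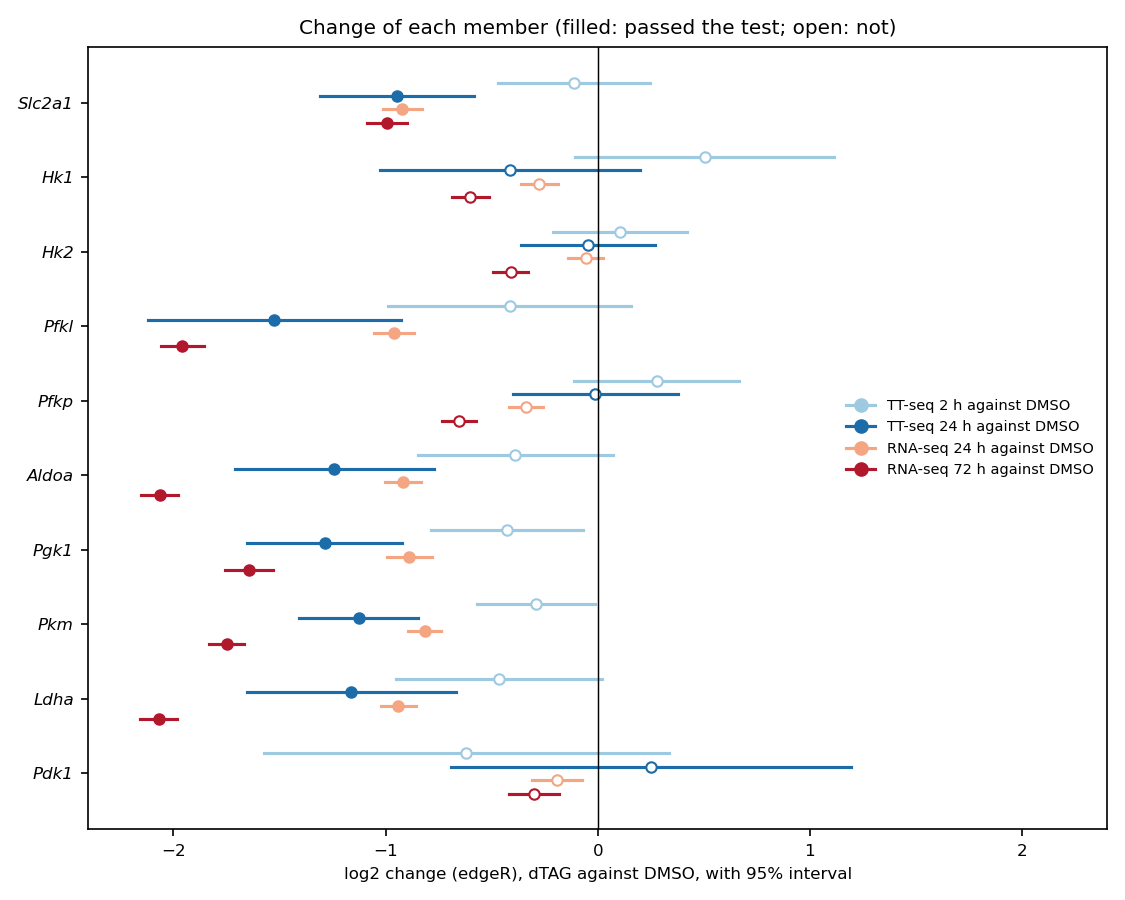
Log2 change of each gene from DMSO (horizontal axis) with its 95% interval, for TT-seq at 2 and 24 h and mRNA at 24 and 72 h. Filled points passed the test and open points did not; the 6 genes with filled points in TT-seq at 24 h have filled points in mRNA too.

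Because the members include paralogs with the same enzyme activity, their shares within a family, which no scaling between libraries can alter, were followed per kilobase of exons. Pfkl made up 29.3 to 30% of phosphofructokinase mRNA (Pfkl, Pfkp and Pfkm) in DMSO, 21.7 to 22% at 24 h, 14.4 to 14.7% at 48 h and 14.7 to 14.8% at 72 h, while Pfkp, the platelet type, went from 48.6 to 48.9% up to 59.4 to 60.2%. In nascent RNA, per kilobase of gene, the share of Pfkl was 30.7 to 31.9% in DMSO, 18.7 to 24.6% at 2 h, 19.5 to 21.3% at 6 h and 12.5 to 15.2% at 24 h. Every depleted library was below both controls. Of the lactate dehydrogenase pair Ldha and Ldhb, Ldha made up 40.9 to 41.6% of mRNA in DMSO and 29.2 to 29.9%, 21.8 to 21.9% and 24.7 to 26.1% at 24, 48 and 72 h. In the stem cells of the RA experiment the level of this share was different, at 69.4 to 70.4% in DMSO and 57.1 to 57.2% after 24 h of dTAG-V1. Of the Slc2a1 and Slc2a3 pair, the main glucose carriers measured here, Slc2a1 held 33.9 to 34.9% in DMSO, 15 to 15.8% at 48 h and 20.6 to 21.5% at 72 h. Hexokinase moved less, with Hk1 at 33.2 to 33.5% in DMSO and 28.7 to 31.2% at 48 and 72 h. Aldolase stayed almost wholly Aldoa, at 98 to 98.6% in every mRNA library of the time course. The difference in fold change between paralogs was not tested as such.

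**Figure D3:**
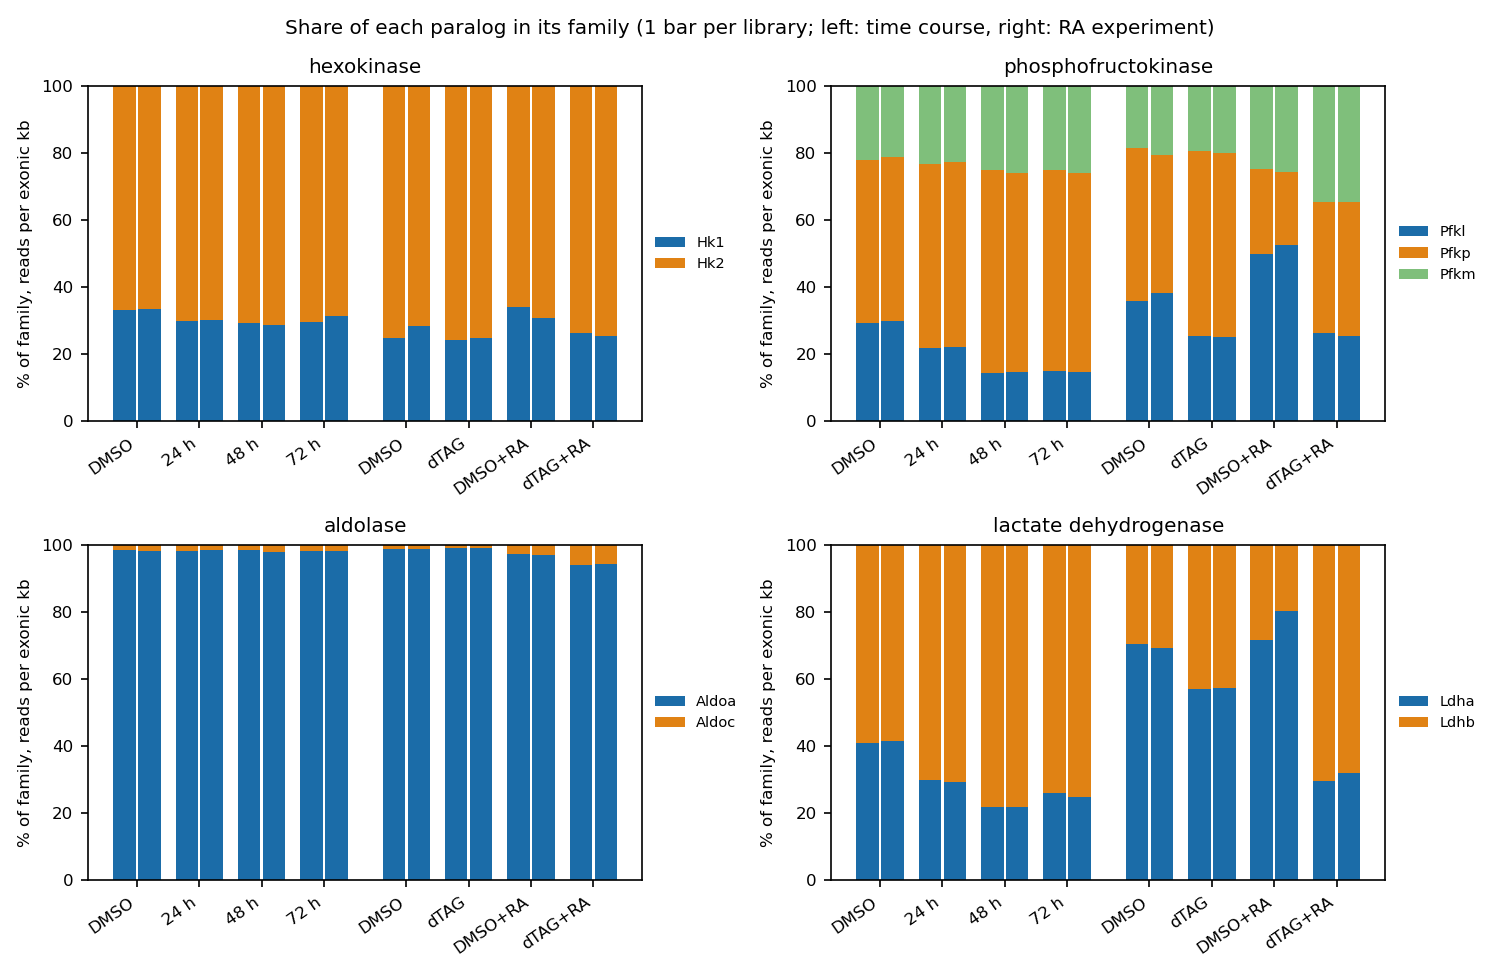
Share of each paralog in its enzyme family (vertical axis, percent of CPM per exonic kilobase), 1 bar per library, with the time course on the left and the RA experiment on the right of each panel. The blue Pfkl and Ldha portions shrink with depletion, and in RA with ZFP143 they are larger than in RA without it, at 49.8 to 52.4% against 25.4 to 26.4% for Pfkl.

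The RA experiment gave a second set of depleted stem cells and a set pushed to differentiate. Before RA, 24 h of dTAG-V1 lowered 4 of 10 members (Slc2a1, Pfkl, Aldoa and Pgk1) and raised 0, with 3.66% of 15915 genes called lower and 2.74% higher (583 and 436 genes, or 481 and 626 with scaling by library size alone). Ldha and Pkm had log2 changes of -0.83 and -0.75 and missed the call (edgeR adjusted p = 0.0156 and 0.0531). The values of these 6 genes, -1.02 (Slc2a1), -0.87 (Pfkl), -0.94 (Aldoa), -0.83 (Pgk1), -0.75 (Pkm) and -0.83 (Ldha), stood beside -0.92, -0.96, -0.92, -0.89, -0.82 and -0.94 at 24 h of the time course. The count of 4 fell to 0 without DMSO replicate 2, 0 without dTAG replicate 1, 1 without dTAG replicate 2 and 2 under DESeq2, it was 0 with scaling by library size alone and 6 with the thresholds used for TT-seq, and it was 4 without DMSO replicate 1. Mitochondrial transcripts were not called here (0 of 7 by edgeR or DESeq2, 5 at an unadjusted p under 0.05).

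After RA, 6 of 10 members were lower in depleted cells than in DMSO cells and 0 were higher, with 7.36% of all genes called lower and 9.1% higher (1171 and 1449 genes, or 762 and 2089 with scaling by library size alone). Aldoa was at 1712 and 1892 CPM with ZFP143 and 251.5 and 232.8 without it, a log2 difference of -2.90 (SE 0.09, edgeR adjusted p = 7.87e-15), or 7.44-fold lower. Pgk1 was at 148.9 and 163.8 against 28.13 and 28.59 CPM, 5.51-fold lower (log2 -2.46, SE 0.08, edgeR adjusted p = 4.44e-14). In both genes the depleted RA libraries were the lowest of all 8 by a wide margin. Ldha was 5.03-fold lower (505.6 and 619.1 against 118 and 105.5 CPM), Pkm 4.65-fold (1355 and 1521 against 313.8 and 304.6), Pfkl 3.68-fold (415 and 414.5 against 116.6 and 109) and Slc2a1 2.64-fold (701.7 and 995.9 against 283.3 and 359.6), the largest edgeR adjusted p among these 4 being 1.16e-06. Hk1 (log2 -0.61), Hk2 (-0.14), Pfkp (-0.16) and Pdk1 (-0.22) did not pass. This split of the 10 genes into 6 and 4 by the 1.5-fold test is the one seen at 72 h of the time course. It depended on the thresholds: with those used for TT-seq, Hk1 was also called lower after RA, and Hk1 and Pfkp at 72 h. Those thresholds called 2966 genes lower and 3333 higher after RA, and 3066 and 3398 at 72 h. All 7 mitochondrial genes tested lay below DMSO with RA, 6 of them called.

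**Figure D4:**
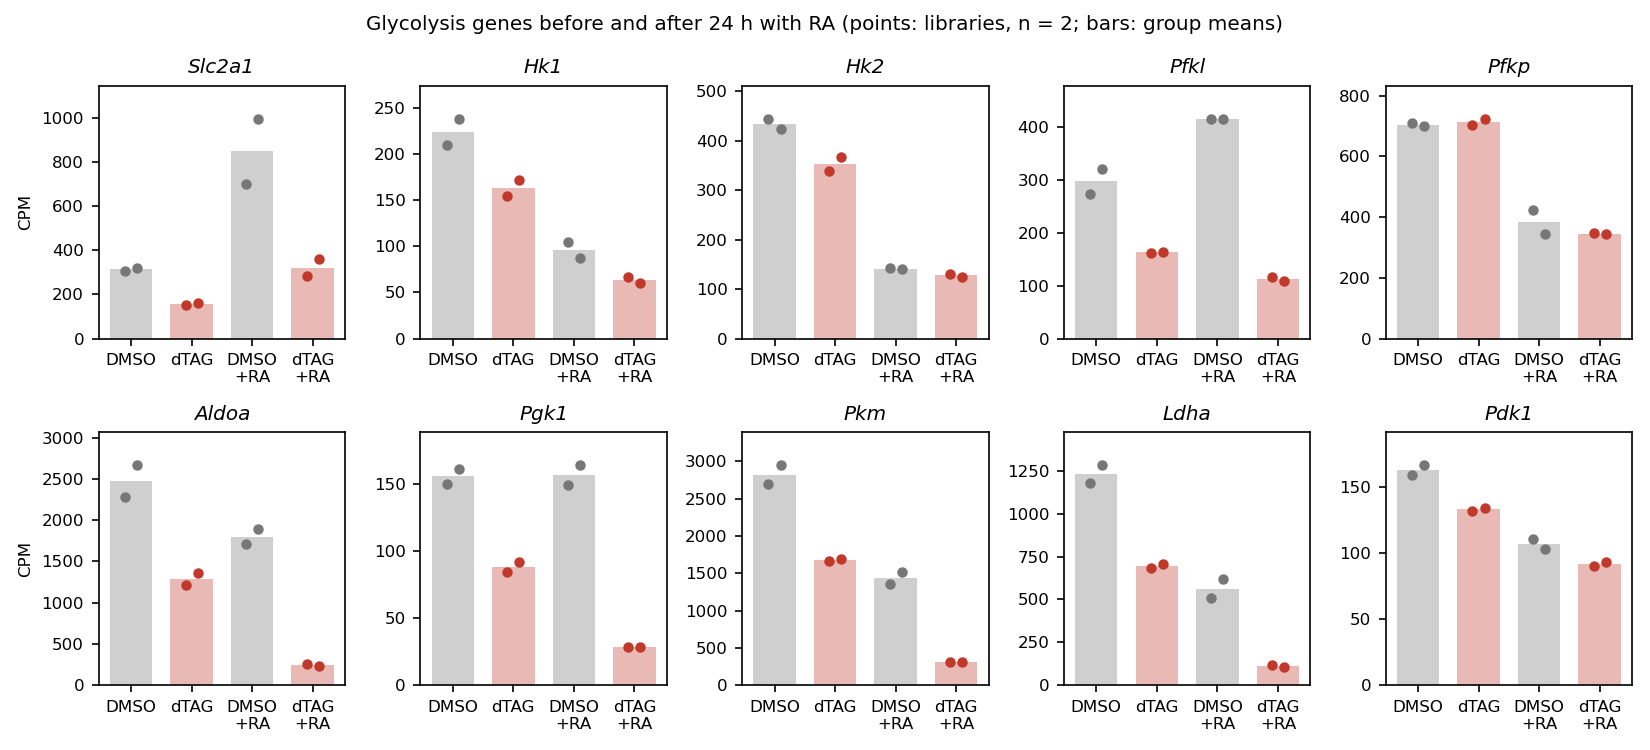
CPM of each gene in the 4 groups of the RA experiment, with points for libraries (2 per group) and bars for group means. In every gene but Slc2a1 the depleted RA cells have the lowest group mean, and in Slc2a1 and Pfkl the DMSO cells with RA are highest.

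RA together with the medium change acted on the genes in different directions. In DMSO cells Slc2a1 rose, from 306.2 and 321.8 CPM to 701.7 and 995.9 (log2 change 1.43, SE 0.12, edgeR adjusted p = 1.68e-07). 5 genes fell: Hk2 by 1.62 on the log2 scale (443.6 and 422.5 to 142.6 and 139.5 CPM), Hk1 by 1.21, Ldha by 1.13, Pkm by 0.97 and Pfkp by 0.87, the largest edgeR adjusted p being 5.13e-04. Pgk1 was level at 149.8 and 161.5 before and 148.9 and 163.8 CPM after (log2 change 0.01, 95% interval -0.15 to 0.16). Of all genes 18.1% were called lower and 25.8% higher. In depleted cells 7 genes fell and Slc2a1 rose, with 18.5% and 25% of all genes: Ldha fell by 2.63, Pkm by 2.44, Aldoa by 2.41 and Pgk1 by 1.63, Hk2 by 1.46, Hk1 by 1.36 and Pfkp by 1.04, while Slc2a1 rose by 1.05 (SE 0.12, edgeR adjusted p = 2.20e-04), a call that DESeq2 did not make. Scaling by library size alone moved the median of all genes by 0.07 to 0.39 in this table and turned the calls from 2877 lower and 4113 higher to 1710 and 5164 in DMSO cells, and from 2939 and 3980 to 1518 and 5447 in depleted cells. Under that scaling the RA falls of Pkm and Pfkp in DMSO cells were not called and Pfkl was called higher there, and the fall of Pfkp in depleted cells was not called. The fall of Pfkp in DMSO cells was also not called without DMSO with RA replicate 2. The markers of both states moved with RA as well. The 8 stem cell markers summed to 7085 to 7227 CPM in DMSO, 1365 to 1947 in DMSO with RA and 1447 to 1739 in depleted cells with RA, and the 10 markers of differentiated cells to 88.18 to 92.5, 163.1 to 187.1 and 116.6 to 123.8 CPM. The stem cell sums of the RA groups overlapped and the differentiated sums did not. With depletion after RA, the stem cell markers Tfcp2l1, Klf4 and Esrrb were called higher and Dppa5a lower, the RA-induced genes Hoxb1, Rarb and Cyp26a1 lower, and of the differentiated markers Pax6 and Nes lower and Gata6 higher. DESeq2 called 2 of 8 stem cell markers higher and 1 lower, 2 RA-induced genes lower, and 2 differentiated markers lower and 0 higher. The part of these markers in the glycolysis results was not tested.

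Whether the RA response differed with ZFP143 was tested directly as an interaction. It was called for 5 of 10 members, all toward a lower level in depleted cells, with 18% of all genes called lower and 13.7% higher. Over all genes these were 2863 lower and 2186 higher, or 2404 and 2538 with scaling by library size alone, under which the same 5 members were called lower. The same interaction was called higher for 6 of 8 stem cell markers (such as Esrrb, 2.84, and Klf4, 1.56) and lower for Dppa5a, and lower for 4 and higher for 1 of 8 tested differentiated markers and lower for 2 of 5 RA-induced genes. Their part in the interaction of the glycolysis genes was not tested. Aldoa changed by -0.46 with RA in DMSO cells and by -2.41 in depleted cells, a difference of -1.96 (SE 0.12, edgeR adjusted p = 1.61e-10). The differences were -1.64 for Pgk1 (SE 0.11, edgeR adjusted p = 5.34e-10), -1.50 for Ldha (SE 0.12, edgeR adjusted p = 7.10e-09), -1.47 for Pkm (SE 0.11, edgeR adjusted p = 1.65e-09) and -1.01 for Pfkl (SE 0.11, edgeR adjusted p = 2.27e-07). For Slc2a1 the difference was -0.38 (SE 0.17, edgeR adjusted p = 0.0693), and it was called without DMSO with RA replicate 1 or without dTAG with RA replicate 2. Hk1, Hk2, Pfkp and Pdk1 gave -0.15 (95% interval -0.41 to 0.11), 0.16 (-0.05 to 0.36), -0.18 (-0.41 to 0.06) and 0.06 (-0.14 to 0.27). The depleted RA cells had been without ZFP143 for 48 h and the depleted cells before RA for 24 h, so the longer depletion and RA cannot be told apart in this difference. At 48 h of the time course without RA, mRNA of Aldoa stood at 25.1% of DMSO and Pgk1 at 36.6%, against 13.4% and 18.2% after RA, in separate experiments.

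The rest of the pathway was read from lists of genes by role. Of 18 tested glycolytic enzymes outside the 10, the mRNA of 2, 6 and 11 fell at 24, 48 and 72 h, and that of 0, 1 and 1 rose. Over all genes 3.41%, 7.71% and 12% were called lower and 2.32%, 10.5% and 13.7% higher at these times. DESeq2 called 1, 5 and 9 of the enzymes lower and 0, 0 and 1 higher. After RA 8 were lower and 1 higher with depletion (8 and 0 in DESeq2), with 7.36% of all genes called lower and 9.1% higher. In TT-seq 4 of 17 fell at 24 h (Eno1, Gapdh, Gpi1 and Pgam1), or 5 in DESeq2, with 4.09% of all genes called lower and 2.02% higher. Tpi1, triose phosphate isomerase, fell most of these at 72 h, going from 452.4 and 477.5 CPM in DMSO to 203 and 218.2, 100.4 and 100.3, and 87.14 and 89.96 at 24, 48 and 72 h, 5.25-fold lower at 72 h (log2 -2.39, SE 0.05, edgeR adjusted p = 8.86e-23). Enolase Eno1 fell by 1.68 and Gapdh by 1.00 on the log2 scale at 72 h. Eno1 mRNA was at -0.25 (SE 0.04) at 24 h, not called, although its nascent RNA had fallen by 1.04 by then. The neuronal enolase Eno2 rose at 48 h (1.07) and with depletion after RA (0.88), calls that DESeq2 did not make. The paralogs of members went different ways, with Aldoc falling by 1.88 and Ldhb by 1.02 at 72 h, and Slc2a3 at 1442 and 1463 CPM in DMSO and 1421 and 1455 (72 h).

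At the exit of the pathway, Slc16a3, the lactate exporter MCT4, fell most of the carriers. It was at 57.96 and 63.71 CPM in DMSO, 11.7 and 15.14 (24 h), 4.802 and 6.589 (48 h) and 3.145 and 2.387 (72 h), or 22.4-fold lower at 72 h (log2 -4.49, SE 0.14, edgeR adjusted p = 1.58e-19). Of 6 tested glucose and lactate carriers it alone was called lower at 24 and 48 h, and it and Slc2a8 at 72 h. Its nascent RNA gave -2.44 (SE 0.65) at 24 h and was not called (edgeR adjusted p = 0.0652), while DESeq2 called 2 of the 6 carriers lower at that time. Of 12 genes for pyruvate entry into mitochondria (the carrier, the pyruvate dehydrogenase complex, its kinases and phosphatases) none was called at 24, 48 or 72 h of mRNA by edgeR or DESeq2, although 5, 8 and 9 had an unadjusted p under 0.05, in both directions. After RA, Pdha1, the catalytic subunit, fell by 0.83 and the kinase Pdk3 by 1.36 with depletion by edgeR, where DESeq2 called 1 of the 12 lower. Of 5 genes that set fructose 2,6-bisphosphate, the activator of phosphofructokinase, Pfkfb2 (1.13) and Pfkfb3 (0.87) rose at 72 h by edgeR, where DESeq2 called 1. In the pentose phosphate pathway, which branches off glucose 6-phosphate, 5 of 7 genes fell at 48 h and 4 at 72 h, against 7.71% and 12% of all genes. Taldo1 and Rpia of that list had a ZFP143 peak at a start, and nascent Taldo1 was called lower already at 2 h (log2 -0.90, SE 0.14, edgeR adjusted p = 0.012), at a time when no glycolysis gene was.

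**Figure D5:**
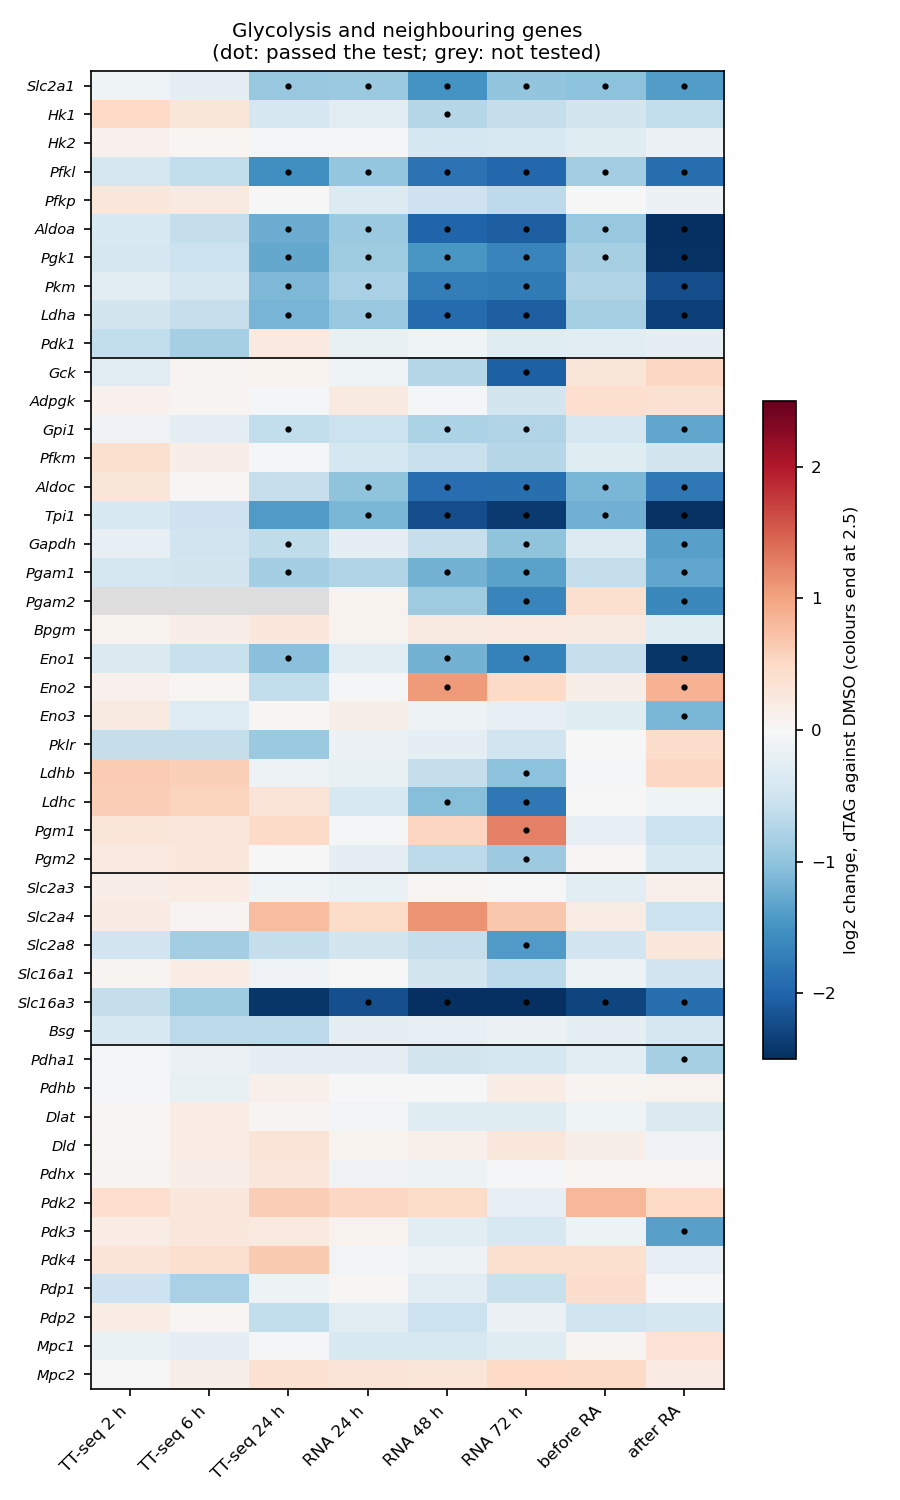
Log2 change from DMSO in 8 contrasts (columns) for the 10 genes, the other glycolytic enzymes, glucose and lactate carriers, and genes of pyruvate entry into mitochondria (rows, in blocks from top to bottom). Blue is lower and red higher in depleted cells, dots mark calls and grey cells were not tested; both enzyme blocks hold dots from 24 h on, and the pyruvate block holds none before RA.

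Known regulators were described at the RNA level only. Hif1a, the oxygen-sensing factor whose protein VHL marks for destruction, was at 157.4 and 165 CPM in DMSO and 154.8 and 169.2 (72 h), and Vhl gave log2 changes of -0.26 to 0.06 across the time course, with no call for either gene. Of 12 tested hypoxia-inducible genes outside glycolysis, the mRNA of 2, 6 and 5 fell at 24, 48 and 72 h, and that of 0, 3 and 2 rose. Of all genes 3.41%, 7.71% and 12% were called lower and 2.32%, 10.5% and 13.7% higher, so the share that rose at 72 h was near that of all genes. DESeq2 called 1, 5 and 4 of the list lower and 0, 1 and 2 higher. Bnip3, a mitophagy receptor, fell by 3.16 and Ankrd37 by 2.98 at 72 h, whereas the 2 that rose were Ddit4 (1.12) and Vegfa (1.00). Mycn, which drives growth genes in stem cells, was at 186.3 and 185.2 CPM in DMSO and 80.01 and 84.92 at 72 h (log2 -1.17, SE 0.06, edgeR adjusted p = 4.81e-11). Myc was scarce in the time course, at 0.4452 to 2.865 CPM, and was called higher between 24 and 72 h by edgeR, where DESeq2 called no regulator higher. In the RA table Myc was lower with depletion after RA (log2 -1.64) and fell with RA in DMSO cells (-2.94) and in depleted cells (-3.75). Txnip, a brake on glucose uptake, was called higher in nascent RNA at 24 h (log2 0.61) and in stem cells before RA (1.09), and lower with depletion after RA (-0.997), and its interaction was -2.09 (SE 0.14, edgeR adjusted p = 3.18e-10). In mRNA of the time course, Txnip had an unadjusted edgeR p under 0.05 at 24, 48 and 72 h. At these times DESeq2 called 0 of the 9 regulators higher, and 1 lower at 72 h. With depletion after RA, DESeq2 called 1 of the 9 regulators lower, where edgeR called Myc and Txnip.

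Across all 24 libraries of the 3 tables, centred within each table, Pkm, Ldha, Aldoa and Pgk1 followed each other closely. Pearson's r of log2 CPM was 0.99 for Pkm with Ldha, 0.98 for Aldoa with Pkm and 0.98 for Aldoa with Pgk1, whereas Slc2a1 gave 0.28 with Ldha and -0.34 with Hk2, and Pdk1 gave 0.30 with Aldoa. Among 12810 other genes tested in all tables, the closest pattern was that of Pkm for Ldha, Ldha for Pkm, Aldoa for Pgk1 (0.98) and the mitochondrial citrate carrier gene Slc25a1 for Aldoa (0.98). For the others it was Extl3 for Slc2a1 (0.93), Myo1c for Hk1 (0.97), Cltb for Hk2 (0.99), Zmynd8 for Pfkl (0.94), Mtmr12 for Pfkp (0.96) and Adam23 for Pdk1 (0.78). These values are descriptions. The libraries of a table share an experiment and their 2 controls, and the RA contrast is part of each value.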

How the data were processed

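Nascent RNA (TT-seq) and stranded mRNA were measured in 24 of the 78 samples of the series, in 3 tables of 8 libraries, with 4 groups of 2 replicates each as the labels number them. The deposited counts are raw reads per gene: per the study's methods, the authors aligned reads to mm10 with STAR, and for TT-seq kept reads mapped with quality above 10, removed duplicates with Picard, split reads by strand and counted over whole genes with htseq-count, so that introns are included, while mRNA counts came from STAR itself. Peaks were deposited by the authors as 1 list from MACS2 with fold enrichment over input. How far replicates were separate cultures is not given in the sources used here beyond the words biological replicates, so p-values measure the spread between these libraries.

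Counts were tested in R 4.3.3 with edgeR 4.0.16 (limma 3.58.1), 1 quasi-likelihood fit per table with TMM scaling, after a filter that asked for over 10 reads in 4 or more of the 8 libraries (17870, 13925 and 15915 genes). The interaction of RA with depletion, and all TT-seq contrasts, used glmQLFTest, called at an adjusted p (Benjamini-Hochberg) under 0.05 with a log2 change beyond 0.5. The mRNA contrasts used glmTreat against 1.5-fold, called at an adjusted p under 0.01. Intervals are 95%. Genes were matched to GENCODE vM21 by identifier without version (55141 of 55401), which gave positions and lengths. No column was left unmapped and no libraries were identical. Alternatives were DESeq2 1.42.0, RLE size factors, library size alone, no count filter, a replicate block, the thresholds of the other assay and leaving out each library. The code was tested on simulated counts. Python 3.11.15 with pandas 2.3.3 and matplotlib 3.10.9 did the rest. Promoter sequences came from RefSeq (GRCm38.p6), with 16 starts for the 10 genes, and correlations used log2 CPM with a prior count of 2.

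The 10 genes and the other gene lists were chosen with earlier results of these data known. All 10 are described in each contrast. From the other lists at most 4 called genes without overlap between groups, those with the largest changes per contrast, could be named, along with Zfp143, Hif1a, Vhl, Myc, Mycn, Txnip and paralogs of the 10. Eno2 and Vegfa were named after their values were seen, as genes of their lists that rose. Chromatin contact data and CTCF peaks were not used here.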

Additional observations from a re-analysis of the deposited data

Results flagged for a closer look

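For 5 of the 10 glycolysis genes the effect of RA differed between depleted and DMSO cells by the interaction test itself, where 18% of all genes were called lower and 13.7% higher. With the log2 effect of RA in DMSO cells subtracted from that in depleted cells, the difference was -1.01 for Pfkl, -1.96 for Aldoa, -1.64 for Pgk1, -1.47 for Pkm and -1.50 for Ldha (edgeR adjusted p = 2.27e-07 for Pfkl and smaller for the other four). All 5 differences were called under every alternative and with each library left out. The depleted cells with RA had been without ZFP143 for longer than those without RA, and the 2 cannot be told apart. No group had 4 or more libraries, so single libraries were not tested as outliers.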

How the results depend on the processing

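Of all member values under the alternatives, 1217 kept direction and call, 46 gained a call, 49 lost it and 28 changed sign. Counts of members called moved as follows, and the cause was not tested. Without the count filter 1 member was called higher and 5 lower where none had been, at 2 h and 6 h of TT-seq, and between 2 h and 24 h 7 were called lower and 1 higher. Between 2 h and 24 h library size alone gave 1 lower and DESeq2 6. At 24 h of TT-seq the mRNA thresholds gave 0 lower, and leaving out libraries 2 to 6. Before RA library size alone gave 0 lower, DESeq2 2 and leaving out libraries 0 to 4. For RA in DMSO cells library size alone gave 3 lower and 2 higher, and for RA in depleted cells DESeq2 gave 0 higher.

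The replicate numbers are shared by the groups, but the labels do not say that a number marks a shared batch. Deviations of same-numbered libraries correlated at 0.19 to 0.63 in TT-seq, -0.04 to 0.06 in the mRNA course and -0.10 to 0.13 in the RA table (6 pairs of groups each). With a replicate block 3 members were called lower at 6 h and 7 between 2 h and 24 h of TT-seq, the log2 change of Pfkp at 24 h was 0.001, and other member counts moved by less than 1.5 times.

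Sign changes were all in values that were not called. With library size alone the log2 change was 0.010 (Hk2) and 0.045 (Pfkp) at 24 h of TT-seq, 0.076 for Hk2 at 24 h and 0.084 for Pdk1 at 48 h of mRNA, 0.015 for Slc2a1 between 24 h and 72 h, and 0.070 (Hk2) and 0.053 (Pfkp) with depletion after RA. Pfkp before RA was -0.009 with RLE and with DESeq2, and Pgk1 with RA in DMSO cells was -0.011, -0.021 and -0.010 with RLE, no filter and DESeq2. With single libraries left out the ranges in TT-seq were -0.252 to 0.060 (Slc2a1, 2 h), -0.052 to 0.744 (Hk1, 6 h), -0.040 to 0.147 (Hk2, 6 h), -0.763 to 0.045 (Hk1, 24 h), -0.174 to 0.082 (Hk2, 24 h), -0.194 to 0.212 (Pfkp, 24 h) and -0.157 to 0.842 (Pdk1, 24 h). They were -0.281 to 0.015 for Pfkp after RA, -0.059 to 0.128 for Pgk1 with RA in DMSO and -0.252 to 0.006 for the Hk1 interaction. With 2 libraries per group and the wider spread of TT-seq, changes there are known less well than in mRNA.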
